A study of Mus musculus with 6 samples.

Results

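Gap junction connexins and pannexins were followed through 6 RNA-seq libraries labelled as mouse brain, by taking the rows of 7 gene symbols from the 24346 rows that every library has. The members are 5 connexins, Gjd2, Gjc1, Gja1, Gja10 and Gjb6, and 2 pannexins, Panx1 and Panx2, and each has a row. The labels place all mice at embryonic day 17.5. Of the 6 libraries, 3 are labelled double knockout (DKO) for miR-124a-1 and miR-124a-2, genes of a microRNA abundant in neurons, and 3 are labelled control with the genotype miR-124a-1+/-. The controls therefore carry 1 miR-124a-1 deletion themselves, and no wild-type library enters the comparison. Values are in FPKM, sequenced fragments relative to transcript length and to the size of the library, so levels can be set side by side between genes.

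Connexins are membrane proteins that assemble into hexameric hemichannels, and hemichannels of neighbouring cells dock to form a gap junction that passes ions and small molecules. Between neurons such junctions work as electrical synapses, and in the retina they couple photoreceptors, horizontal cells, bipolar cells and amacrine cells. Pannexins form large-pore channels of a single membrane, known for releasing ATP that purinergic receptors then sense.

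The transcripts in these libraries do not match the labelled tissue and age. The 8 genes listed as markers of rod photoreceptors summed to 12966 to 14167 FPKM in the libraries labelled DKO and 13592 to 14820 FPKM in the controls. Emx1, a cortical transcription factor, and Olig2, a factor of oligodendrocyte lineage cells, were listed at 0 in all 6, and Mki67, a gene of dividing cells, reached at most 0.262 FPKM. The marker lists of rods, cones, bipolar, amacrine, horizontal and ganglion cells and of Müller glia had a mean of at least 1 FPKM over the 6 libraries for every gene, so the groups are named here by their labels only. Mir124a-1hg, the transcript that carries miR-124a-1, measured 464 to 510 FPKM in the libraries labelled DKO and 420 to 528 FPKM in the libraries labelled control, which does not check the genotype, since the labels do not say which part was deleted. From the steps between the lowest values, the libraries were estimated to hold 7230000 to 9360000 fragments. Nothing in the labels says whether the 3 libraries of a group came from separate litters, so p-values measure the spread between these libraries.

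Gjd2 was by far the most abundant family member, and its level was close in both groups. Gjd2 encodes Cx36, the main connexin of electrical synapses between neurons, used in the retina by photoreceptors and by AII amacrine cells. The gene lies on the minus strand of GRCm38 chromosome 2, 114009601 to 114013619, and has 2 exons. A long noncoding RNA gene, A530058N18Rik, begins on the opposite strand inside its first exon, so the sequence just upstream of Gjd2 lies within the A530058N18Rik gene. The 250 bases before the RefSeq start of Gjd2 (GRCm38.p6, chr2:114013620-114013869, minus strand, from RefSeq) are shown because the RNAs of both genes were measured. Whether the RNAs differ from each other in their change between groups was not tested. Capitals mark CG dinucleotides, a motif that reads the same on both strands.
Gjd2 upstream: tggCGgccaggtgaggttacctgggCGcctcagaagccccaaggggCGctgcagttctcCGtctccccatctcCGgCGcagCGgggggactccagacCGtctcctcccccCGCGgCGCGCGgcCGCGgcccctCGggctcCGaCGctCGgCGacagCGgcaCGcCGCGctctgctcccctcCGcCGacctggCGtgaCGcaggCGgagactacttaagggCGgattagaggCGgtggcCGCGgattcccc
The window holds 33 CG dinucleotides and is 74.0% G+C, and 4.03% of the 32851 such windows in RefSeq hold at least as many. The windows of Gja10, Gjb6, Gja1 and Panx1 hold 2, 5, 6 and 17, and the median over all windows is 6. The Gja10 window precedes its RefSeq start but lies inside the gene span given for it below.

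Gjd2 measured 62.9, 62.5 and 68.6 FPKM in control replicates 1, 2 and 3, and 58.1, 61.1 and 67.4 FPKM in DKO replicates 1, 2 and 3. The groups overlap, and the lowest library is DKO replicate 1. The means were 64.7 ± 3.39 and 62.2 ± 4.71 FPKM (SD, n = 3 each). The log2 fold change (DKO minus control, on log2(FPKM + 1)) was -0.06 with SE 0.07 (limma, with p-values adjusted by Benjamini-Hochberg (BH) over all tested rows, BH adjusted p = 0.878). Its 95% confidence interval from limma, -0.21 to 0.09, corresponds to a ratio of 0.866 to 1.07. An estimated 1169 to 1531 fragments per library stood behind these values, the most of any member. Gjd2 accounted for 59.3% to 63.7% of the summed FPKM of all 23 connexin and pannexin symbols, and 1155 of the 24346 rows had a higher mean.

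Markers of photoreceptors and amacrine cells, which include the cells known to use Cx36, were set beside Gjd2. Of the 8 rod photoreceptor genes, whose sums are given above, 7 lay below 0 on the log2 scale and 1 above, with a median of -0.08. The 8 genes of the cone photoreceptor list had a log2 fold change below 0 in 8 cases, with a median of -0.18, and summed to 635 to 699 FPKM in the libraries labelled DKO and 702 to 786 FPKM in the controls. Of the 9 genes listed for AII and other amacrine cells, 8 lay above 0 and 1 below, with a median of 0.16, and the list summed to 427 to 431 FPKM in the libraries labelled DKO and 373 to 399.9 FPKM in the controls. Within that list the genes known from AII cells, Prox1, Nfia, Dab1 and Slc6a9, had log2 fold changes of -0.0051, 0.02, 0.09 and 0.13, and 5 genes of GABA-releasing or general amacrine cells (Gad1, Slc32a1, Gad2, Tfap2b and Tfap2a) had 0.16 to 0.31. In limma, 0 genes of the 3 lists passed after BH adjustment. The part of these cells in the Gjd2 values was not tested.

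The antisense RNA at the same locus was lower in the libraries labelled DKO, without passing the threshold. A530058N18Rik (chromosome 2, 114013563 to 114068324, plus strand) measured 14.9, 16.2 and 12.7 FPKM in control replicates 1 to 3 and 11.6, 10.3 and 8.87 FPKM in DKO replicates 1 to 3. Every library labelled DKO lay below every control. The log2 fold change was -0.47 with SE 0.11 (limma, BH adjusted p = 0.378). This gene was chosen after its values were seen. It shares 57 bases with Gjd2, and the labels name a stranded kit but not whether strand was used in counting, so fragments in that overlap cannot be assigned to 1 gene with certainty. Chromosome 2, which holds both genes, had 12.5% of its 1007 tested rows at an unadjusted limma p under 0.05, against 7.50% on the other chromosomes.

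Over the whole series, the test took the 13215 rows whose mean reached 1 FPKM, and 6 of the 7 members were among them. Of the 6, 0 passed at an adjusted p of 0.05 in limma, where 0.0227% of all tested rows did. At an unadjusted limma p under 0.05 there were 2 members, Gja10 and Gja1, both lower in the libraries labelled DKO, beside 7.88% of all tested rows in either direction and 4.36% on the lower side. The groups did not overlap for 1 member, Gja10, which was lower, beside 13.9% of all tested rows in either direction and 6.95% on the lower side. The median log2 fold change of the 6 members was -0.07, against -0.0016 over all tested rows. The plot of levels by library shows the members from the most abundant to the one listed at 0.

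**Figure D1:**
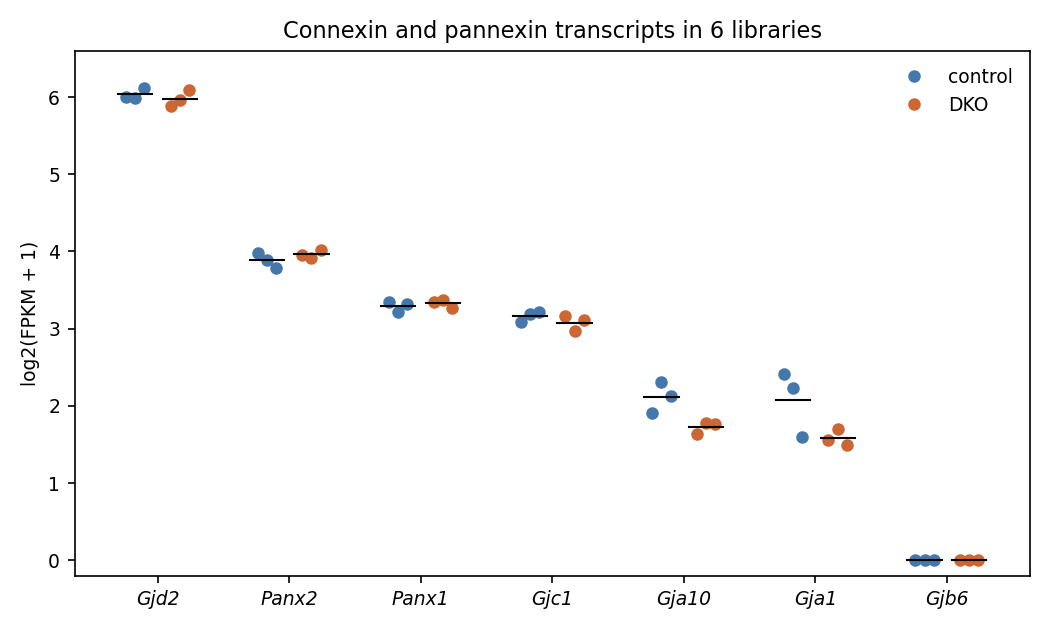
Level of each of the 7 members on a log2(FPKM + 1) axis; points are the 3 control libraries (blue) and the 3 libraries labelled DKO (orange), and bars are group means. Gjd2 stands above all other members in every library, the groups separate for Gja10 alone, and Gjb6 sits at 0.

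Gja10 had the smallest p of the members. It encodes Cx57, the connexin through which horizontal cells of the retina couple to each other, and lies on the minus strand of chromosome 4, 32596960 to 32602760. It measured 2.74, 3.95 and 3.37 FPKM in control replicates 1, 2 and 3, and 2.12, 2.44 and 2.41 FPKM in DKO replicates 1, 2 and 3. The lowest control lay above the highest library labelled DKO, and control replicate 2 was the highest of all. The means were 3.36 ± 0.605 and 2.32 ± 0.179 FPKM (SD, n = 3 each), a difference of -30.8% in the libraries labelled DKO. The log2 fold change was -0.38 with SE 0.13 and a 95% confidence interval from limma of -0.68 to -0.09. It did not pass over all rows (limma, unadjusted p = 0.0167, BH adjusted p = 0.538). These values rest on an estimated 30 to 59 fragments per library, and counting error alone is 18.2% at 30 fragments.

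Most other horizontal cell markers also had lower means in the libraries labelled DKO, some only slightly, and none passed the test. There are 7 listed genes, of which Prox1 is also an amacrine marker. The log2 fold change was below 0 for 6 and above it for 1, and 0 passed. Over all tested rows, 6678 of 13215 lay below 0. Prox1, Onecut2 and Sept4 were among the 6, at only -0.0051, -0.06 and -0.08, with overlapping groups. The summed level of the 7 genes was 254 to 275 FPKM in the libraries labelled DKO and 280 to 293 FPKM in the controls. That sum rests mainly on Sept4 (122 to 142 FPKM), Prox1 (48.1 to 55.2 FPKM) and Slc4a3 (44.7 to 53.6 FPKM). The groups overlap for Sept4 and Prox1, and the low transcription factor genes add little to the sum. Calb1, a calcium-binding protein of horizontal cells that some amacrine and ganglion cells also make, measured 31.1, 37.1 and 33.0 FPKM in control replicates 1 to 3 against 26.2, 27.0 and 26.6 FPKM in DKO replicates 1 to 3. Lhx1, a transcription factor restricted to horizontal cells in the mature retina, measured 4.45, 5.01 and 4.69 against 3.52, 3.93 and 3.99 FPKM. As for Gja10, the groups did not overlap for either gene and control replicate 2 was the highest library. Their log2 fold changes were -0.33 and -0.25 (limma, BH adjusted p = 0.304 and 0.584). Onecut1, another horizontal cell factor, lay the other way, at 2.56 to 3.36 FPKM in controls and 3.30 to 3.76 FPKM in the libraries labelled DKO (log2 fold change 0.22, limma, BH adjusted p = 0.696). Ganglion cell markers lay mostly on the same side: of the 8 listed genes 1 was above 0 and 7 below, with a median of -0.16. None of them passed. They summed to 663 to 687 FPKM in the libraries labelled DKO and 725 to 786 FPKM in the controls. The groups did not overlap for 6 of these 8 genes and 3 of the 7 horizontal cell genes, beside 13.9% of all tested rows. This was not particular to these lists. It also held for 6 of the 9 amacrine genes, a list mostly above 0, 4 of the 8 bipolar genes and 3 of the 8 cone genes. In bulk RNA, fewer cells of a type and less RNA per cell cannot be told apart, and the part of horizontal or ganglion cells in the Gja10 and Calb1 values was not tested.

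**Figure D2:**
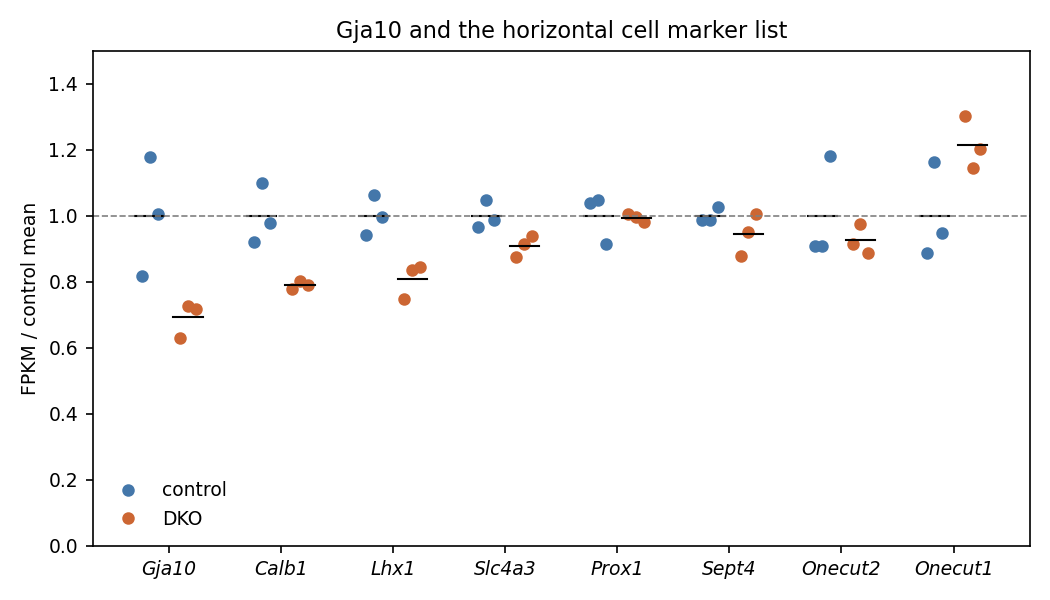
Gja10 and the 7 genes of the horizontal cell list, each library divided by the control mean of that gene; points are libraries, bars are group means and the dashed line is 1. All 3 libraries labelled DKO lie below all 3 controls for Gja10, Calb1, Lhx1 and Slc4a3, while Prox1, Sept4, Onecut2 and Onecut1 overlap.

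Gja1 varied the most between libraries of the tested members. It encodes Cx43, a connexin of astrocytes, endothelium and lens epithelium, and lies on chromosome 10, 56377330 to 56402513. It measured 4.33, 3.69 and 2.01 FPKM in control replicates 1, 2 and 3, against 1.95, 2.24 and 1.81 FPKM in DKO replicates 1, 2 and 3. Control replicates 1 and 2 stood above all others, while control replicate 3 lay within the range of the libraries labelled DKO. The means were 3.35 ± 1.196 and 2.00 ± 0.219 FPKM (SD, n = 3 each), and the log2 fold change was -0.50 with SE 0.20 (limma, unadjusted p = 0.0418, BH adjusted p = 0.608). Without control replicate 3 the log2 fold change was -0.74 and without control replicate 1 it was -0.33 (limma, BH adjusted p = 0.280 and 0.709). The values rest on an estimated 44 to 93 fragments per library. Control replicate 3 also had the largest share of its summed FPKM in rows of short RNAs such as microRNAs, 6.36%. That share was 1.76% to 3.13% in the other libraries, and its part in the Gja1 values was not tested.

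Markers of cells known to carry Gja1 were set beside these values. The endothelium and pericyte list summed to 126 to 139 FPKM in the libraries labelled DKO and 125 to 135 FPKM in the controls, with 2 of 7 tested genes above 0 and 5 below. Its tight junction gene Cldn5 measured 21.9, 24.6 and 22.8 FPKM in control replicates 1 to 3 and 18.9, 21.2 and 18.9 FPKM in DKO replicates 1 to 3 (log2 fold change -0.22, limma, BH adjusted p = 0.507). Kdr and Rgs5, the 2 genes of that list above 0, had log2 fold changes of 0.11 and 0.17, with overlapping groups. None of the 7 passed. The astrocyte list summed to 98.3 to 112 FPKM in the libraries labelled DKO and 91.4 to 114 FPKM in the controls. Gfap, its intermediate filament gene, was highest in control replicate 3, at 36.2 FPKM, and in DKO replicate 1, at 20.2 FPKM, and 9.94 to 11.04 FPKM elsewhere. Of the same list, Aldh1l1, a folate enzyme of astrocytes, measured 5.58 to 6.09 FPKM in the libraries labelled DKO and 6.47 to 6.90 FPKM in the controls, while Slc1a2, a glutamate transporter, lay the other way, at 56.1 to 59.2 and 45.5 to 47.5 FPKM. None of the 5 tested genes of the list passed. The part of these cells in the Gja1 values was not tested.

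Lens genes differed between libraries too. Cryaa, a lens crystallin, measured 16.6, 103 and 35.1 FPKM in control replicates 1 to 3, and 20.5, 9.22 and 13.9 FPKM in DKO replicates 1 to 3. The lens list as a whole, 7 genes, summed to 34.5 to 187 FPKM in controls and 21.6 to 35.8 FPKM in the libraries labelled DKO. Cryaa was thus higher in control replicates 2 and 3 than in the other 4 libraries. Crygs, another crystallin, measured 5.01, 20.1 and 9.96 FPKM in control replicates 1 to 3 and 2.66 to 3.44 FPKM in the libraries labelled DKO, so its groups did not overlap. All 4 tested lens genes had a log2 fold change below 0, and 0 passed in limma. Gja1 was highest in control replicate 1, and the part of lens tissue in its values was not tested.

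**Figure D3:**
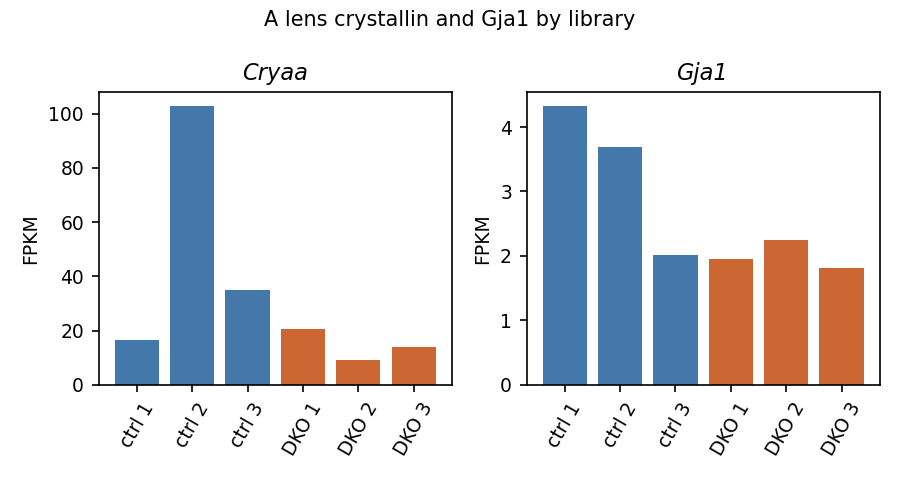
FPKM of Cryaa and Gja1 in each library, with controls (ctrl) in blue and libraries labelled DKO in orange; each panel has its own axis from 0. Cryaa is highest in control replicates 2 and 3, and Gja1 in control replicates 1 and 2.

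Gjc1 and Gjb6 complete the connexin members. Gjc1 encodes Cx45, which some bipolar and amacrine cells and vascular smooth muscle use, and lies on chromosome 11, 102799579 to 102819700. It measured 7.46, 8.10 and 8.26 FPKM in control replicates 1 to 3 and 7.92, 6.81 and 7.65 FPKM in DKO replicates 1 to 3. The groups overlap, and only DKO replicate 2 lies below the lowest control. The log2 fold change was -0.08 with SE 0.08 and a 95% confidence interval of -0.27 to 0.11 (limma, BH adjusted p = 0.857). The 8 bipolar cell markers summed to 774 to 797 FPKM in the libraries labelled DKO and 839 to 873 FPKM in the controls, with 2 above 0, 6 below and 0 past the threshold, and their part in the Gjc1 values was not tested. Gjb6, which encodes Cx30, a connexin of brain astrocytes and of the cochlea (chromosome 14, 57123303 to 57133611), was listed at 0 in all 6 libraries. A floor of 3 fragments would be 0.170 to 0.220 FPKM for its longest coding transcript, on counting error alone. Other astrocyte genes were present, such as Aqp4, a water channel that Müller glia also make, at 16.8 to 19.4 FPKM.

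Both pannexins were measured at steady levels. Panx2, a pannexin of neurons (chromosome 15, 89059734 to 89073567), measured 14.8, 13.9 and 12.7 FPKM in control replicates 1 to 3 and 14.5, 14.1 and 15.2 FPKM in DKO replicates 1 to 3. Panx1, the broadly expressed ATP-release channel (chromosome 9, 15002128 to 15045478), measured 9.16, 8.31 and 8.97 FPKM in control replicates 1 to 3 and 9.18, 9.36 and 8.62 FPKM in DKO replicates 1 to 3. The groups overlap for both genes. For Panx2 the log2 fold change was 0.08 with SE 0.07 and a 95% confidence interval of -0.09 to 0.24 (limma, BH adjusted p = 0.837). For Panx1 it was 0.03 with SE 0.07 and an interval of -0.13 to 0.20 (limma, BH adjusted p = 0.941), and -0.0030 without control replicate 2. A noncoding gene on the other strand, 1810021B22Rik, overlaps the 3′ part of Panx2 and measured 1.32 to 1.79 FPKM in the libraries labelled DKO and 1.72 to 3.83 FPKM in the controls, so the same limit on strand applies.

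**Figure D4:**
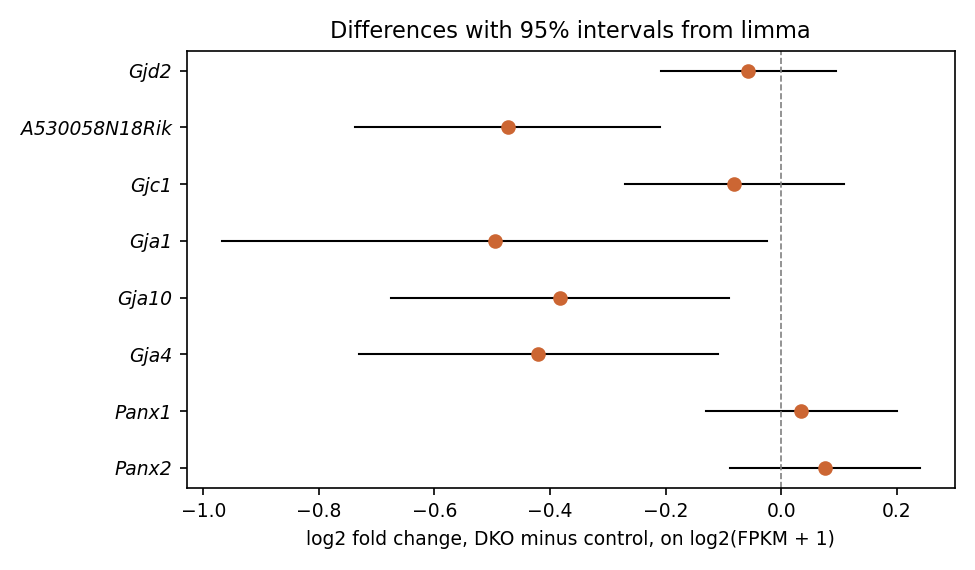
Log2 fold change (DKO minus control, on log2(FPKM + 1)) of the 6 tested members, Gja4 and the antisense RNA A530058N18Rik, with 95% confidence intervals from limma, not adjusted for the number of genes. The intervals of Gjd2, Gjc1, Panx1 and Panx2 include 0, those of the other 4 lie below 0, and 0 of the 8 genes passed after adjustment.

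The order of levels was the same in 5 of the 6 libraries. It ran from Gjd2 through Panx2, Panx1, Gjc1, Gja10 and Gja1 to Gjb6, and only in control replicate 1 did Gja1 exceed Gja10. Over the 6 libraries Gjd2 averaged 63.4 FPKM, which is 4.46 times Panx2, 7.10 times Panx1, 8.24 times Gjc1 and 22.3 times Gja10. The ranges of Panx1 (8.31 to 9.36 FPKM) and Gjc1 (6.81 to 8.26 FPKM) nearly touch, and those of Gja10 and Gja1 overlap, so that pair was not ordered beyond its spread. Between libraries the 4 more abundant members varied little, with a coefficient of variation of 4.44% to 6.81% over all 6, against 24.4% for Gja10 and 39.8% for Gja1.

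Of the 16 other connexin and pannexin symbols, only Gja4 had a mean of at least 1 FPKM. Gja4 encodes a connexin of arterial endothelium (chromosome 4, 127311421 to 127314039). It measured 2.80, 2.05 and 2.37 FPKM in control replicates 1 to 3 and 1.25, 1.73 and 1.66 FPKM in DKO replicates 1 to 3, so the groups did not overlap. The log2 fold change was -0.42 with SE 0.13 (limma, unadjusted p = 0.0143, BH adjusted p = 0.518), on an estimated 14 to 30 fragments per library. Of the remaining symbols, 11 had a mean between 0 and 0.481 FPKM, the highest being Gje1, and 4 were listed at 0 in all 6 libraries, among them Gjb5 and Gjd4.

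The genes that anchor, regulate or act beside these channels were counted from lists chosen for their function. Of the scaffolds and trafficking genes, such as Tjp1, the scaffold protein that binds connexin tails, 10 of 12 were tested, of which 7 lay above 0 on the log2 scale, 3 lay below, and 0 passed. Nbea, a trafficking protein needed at electrical synapses, had the smallest p there (log2 fold change 0.05), followed by Grip1 (0.07; limma, BH adjusted p = 0.860 and 0.870), and the catenin Ctnnb1 was the most abundant, with a mean of 160 FPKM. The median of this list was 0.01.

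Of 15 modulators of electrical synapses, receptors and kinases that alter junctional coupling, 14 were tested, 7 lay above 0 and 7 below, and 0 passed. Drd4, a dopamine receptor of photoreceptors that lowers cyclic AMP, was the most abundant of the list and had its smallest p. It measured 113, 129 and 126 FPKM in control replicates 1 to 3 and 104, 88.3 and 94.98 FPKM in DKO replicates 1 to 3. The groups did not overlap, and the log2 fold change was -0.35 with SE 0.07 (limma, BH adjusted p = 0.304). Drd2, a dopamine receptor of the same signalling class, had -0.21 with overlapping groups (limma, BH adjusted p = 0.660). Over the list, the groups did not overlap for 4 of the 14 tested genes, which lay on both sides of 0, beside 13.9% of all tested rows.

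Of 21 genes of purinergic signalling, which lies downstream of ATP released through pannexin channels, 11 were tested, 4 above 0 and 7 below, and 0 passed. P2ry14, a receptor for UDP-sugars, measured 2.29, 3.62 and 3.09 FPKM in control replicates 1 to 3 and 1.67, 2.15 and 1.58 FPKM in DKO replicates 1 to 3. P2ry1, an ADP receptor, measured 2.54, 1.95 and 1.97 FPKM against 2.75, 3.14 and 2.62 FPKM. The groups did not overlap for either gene, which lay in opposite directions, with log2 fold changes of -0.51 and 0.29 (limma, BH adjusted p = 0.504 and 0.616). Over the list, the groups did not overlap for 3 of the 11 tested genes, beside 13.9% of all tested rows. Nt5e, the ectonucleotidase that makes adenosine, was the most abundant of the list, at 50.8 to 55.6 FPKM. Of the other large-pore channels, 4 were tested, all LRRC8 subunits of volume-regulated anion channels, and 0 passed. Lrrc8b, the most abundant at 41.1 to 47.0 FPKM, had a log2 fold change of -0.06 and Lrrc8d -0.04 (limma, BH adjusted p = 0.830 and 0.941).

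Among the 39 tested genes of these 4 lists, the one whose profile over the 6 libraries was closest to each member was found by the root-mean-square difference of deviations from each gene's own mean on log2(FPKM + 1). The closest to Gja10 was P2ry14, at 0.11, and to Gja1 Drd2, at 0.25. For Gjd2 it was Ctnnb1 (0.06), for Gjc1 Cdh2 (0.07), for Panx1 Tjp1 (0.04) and for Panx2 Csnk1d (0.05). For scale, the members' own root-mean-square deviations were 0.05 to 0.08 for Gjd2, Gjc1, Panx1 and Panx2, 0.23 for Gja10 and 0.36 for Gja1.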

How the data were processed

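Per the labels' protocols, TRIzol was used for the RNA and Illumina's stranded TruSeq mRNA kit for the libraries. The authors deposited 1 table per library in FPKM for each gene symbol, per the file headers. Per the submitters' processing notes, the build was mm10 and the tools were Bowtie2, TopHat2 2.1.1 and Cuffdiff 2.2.1. Which annotation and which scaling were applied is not stated there. In the file headers the DKO columns are spelled CKO.

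Rows whose mean over the 6 libraries reached 1 FPKM were tested in limma 3.58.1 (R 4.3.3) on log2(FPKM + 1), a scale that understates changes of low genes, by eBayes with a trend and Benjamini-Hochberg adjustment over all 13215 rows at 0.05. The fit was checked on simulated data with normal errors. It recovered 52.2% of genes given a log2 change of 0.5, 94.0% at 1 and 98.5% at 2. The changed genes were drawn from tested rows of all levels. They outnumbered the 3 rows called in the real data, which eases the adjustment. The share recovered among low genes such as Gja10, Gja1 and Gja4 was not worked out. Changes of the size seen for these 3 could be missed. The members and gene lists were chosen with earlier results of these data known. Named genes are the members, family members of at least 1 FPKM, and the 2 of smallest p and the most abundant of each pathway list. The closest profiles and leading or absent cell markers are named too. The antisense RNAs, Mir124a-1hg, Aqp4, Cldn5, Kdr, Rgs5, Gfap, Aldh1l1, Slc1a2 and Crygs were named after their values were seen. So were the single horizontal and amacrine cell markers.

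Coordinates are from GENCODE M21 (GRCm38, the assembly of mm10). FPKM times transcript length, less 220 bases, steps in whole fragments; 75.0% of 3384 low values of genes with a single transcript lay within 0.05 of a whole fragment, which gave the fragment numbers, taken as estimates. A planned search for miR-124 sites was not analysed here. Python 3.11.15 with pandas 2.3.3 was used for tables.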

Additional observations from a re-analysis of the deposited data

How the results depend on the processing

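Each value was recomputed with a pseudocount of 0.1 or 0.5, no filter, a mean of at least 5 FPKM (which leaves out Gja10 and Gja1), median-of-ratios scaling, quantile normalization, a replicate block, eBayes without a trend or robust, leaving out short RNA rows, and leaving out each library. In 94 member values under these 16 settings, 0 passed the threshold and 93 kept their direction; Panx1 turned to -0.0030 without control replicate 2. Of the other named genes, Grip1 (-0.014 to 0.13 without single libraries) turned below 0 without DKO replicate 2, and Lrrc8d (-0.11 to 0.026) turned to 0.026 without DKO replicate 1 and 0.0093 without control replicate 2, for causes not tested. Without single libraries the log2 fold change lay between -0.11 and -0.0099 for Gjd2, -0.12 and -0.025 for Gjc1, -0.74 and -0.33 for Gja1, -0.49 and -0.29 for Gja10, -0.0030 and 0.066 for Panx1, and 0.023 and 0.12 for Panx2. The count of called rows was 3, 1 with eBayes without a trend, and between 1 and 4 without single libraries (1 without control replicate 2). With the replicate block it was 2, and Gja10 and Gja1 had adjusted p of 0.430 and 0.468 (limma, Benjamini-Hochberg). Rows at an unadjusted limma p under 0.05 numbered 1271 with the block and 1041 in the main fit. Same-numbered libraries deviated together with r of 0.07, 0.0063 and 0.10 across genes, so the numbers were not taken to pair them. Whether some of the rows share a replicate effect was not tested. In the library with the fewest fragments, counting error alone is 18.2% for Gja10, 15.1% for Gja1 and 26.9% for Gja4, and the control SD of Gja1, 1.196 on a mean of 3.35 FPKM, is larger than that.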
